A study of Homo sapiens with 12 samples.

Results

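VIPR1 and VIPR2 encode the receptors VPAC1 and VPAC2 for vasoactive intestinal peptide (VIP). Their RNA was followed here in MDA-MB-231, a breast cancer line first grown from a pleural effusion. Rows were taken from the deposited table by gene symbol: each of the 2 genes had 1 probe set with its symbol alone (16939637 for VIPR1 and 17065017 for VIPR2), among 22395 genes with such a probe set. Both genes passed the filter on low values that left 20572 genes for testing. VIPR1 was selected on its measured values, chosen by its lower level with TNFα than in control, so that difference, and every VIPR1 difference that shares the control or the TNFα arrays, is given as a description without a test. VIPR2 was taken up as its relative.

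The 12 arrays fell into 4 groups of 3: untreated control cells, cells given the inflammatory cytokine TNFα at 40 ng/ml, cells given the plant flavone apigenin at 40 µM, and cells given both, each for 24 h. Treatments were made up in HBSS, a buffered salt solution, per the labels' protocols; the labels do not say whether the control cells received it. All groups are of 1 cell line, and the labels do not say whether the 3 samples of a group came from separate cultures, so p-values measure only how these samples scatter, and that scatter may be technical.

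VPAC1 and VPAC2 are class B1 (secretin-family) G protein-coupled receptors that bind both VIP and the related peptide PACAP, encoded by ADCYAP1. They couple mainly to the stimulatory G protein encoded by GNAS, which turns on adenylyl cyclases, and the cyclic AMP they make activates protein kinase A and, through it, transcription factors of the CREB family. VPAC1 is the VIP receptor usually found in epithelia, breast included, while VPAC2 is more typical of smooth muscle and parts of the brain.

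Values are deposited log2 expression values per probe set, where a difference of 1 is a doubling. The array medians lay between 2.091 and 2.159 and the whole scale ran from 0.536 to 12.495. Probe sets differ in how strongly they bind, so levels were compared between arrays and not between genes. Labels were set beside genes of known response. These genes were chosen with earlier results of these data known, so their values are a description and not an independent check. With TNFα, CXCL8 rose by 4.36 (SE 0.19, limma adjusted p = 4.7e-08), TNFAIP3 by 3.12 (SE 0.15, adjusted p = 6.1e-08) and ICAM1 by 2.63 (SE 0.13, adjusted p = 1.2e-07). With apigenin the mitotic genes PLK1 and CCNB1 fell by 2.14 (SE 0.13, adjusted p = 1.1e-06) and 1.28 (SE 0.15, adjusted p = 1.3e-04). All 5 basal and mesenchymal markers of the line averaged above the highest array median over the 12 arrays. MSN stood at 9.90, VIM at 8.11, CD44 at 7.69 and CAV1 at 6.78, while SPARC, at 2.58, lay near the array medians. Of 8 luminal breast markers 4 averaged above the highest array median, EPCAM at 4.93 and GATA3 at 4.17 among them, while ESR1, PGR and CDH1 stood at 2.09, 1.58 and 1.95. Of 6 leukocyte markers CD68 (9.71) and CD14 (2.31) lay above it and 3 were tested; PTPRC (1.43) did not pass the filter. Of 6 fibroblast and endothelial markers 4 were tested, and of these CDH5 (2.36) lay above the highest array median; the other 2 had no probe set with their symbol alone. All 5 neural markers averaged between 2.21 and 3.76, above the highest array median.

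RefSeq lists 2 start windows each for VIPR1, VIPR2 and CALCR, and the sources used do not say which starts the probe sets read. Windows from 250 bases before to 50 bases after each start, from RefSeq on GRCh38.p14, are printed for both VIPR1 starts, beside the upstream window of VIPR2 and that of CALCR, the class B1 receptor with the pattern closest to VIPR1 below. Capitals mark GC boxes, GGGCGG or its complement CCGCCC, which are typical of GC-rich promoters. The VIPR1 windows are chr3:42489049-42489348 and chr3:42502393-42502692 on the plus strand, and those of VIPR2 and CALCR are chr7:159144818-159145117 and chr7:93574675-93574974 on the minus strand.
VIPR1 upstream start: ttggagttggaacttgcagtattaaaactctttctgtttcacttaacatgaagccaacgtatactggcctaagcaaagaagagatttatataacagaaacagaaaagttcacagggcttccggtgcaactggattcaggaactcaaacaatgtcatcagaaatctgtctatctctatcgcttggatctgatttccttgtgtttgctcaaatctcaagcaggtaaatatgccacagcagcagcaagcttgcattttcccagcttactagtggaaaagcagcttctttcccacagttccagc
VIPR1 downstream start: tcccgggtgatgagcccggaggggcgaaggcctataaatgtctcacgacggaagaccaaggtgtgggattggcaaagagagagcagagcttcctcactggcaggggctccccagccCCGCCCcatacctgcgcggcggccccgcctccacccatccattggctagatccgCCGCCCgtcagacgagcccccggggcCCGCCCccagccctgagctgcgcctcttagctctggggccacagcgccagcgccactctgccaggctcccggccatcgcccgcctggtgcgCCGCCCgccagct
VIPR2 start: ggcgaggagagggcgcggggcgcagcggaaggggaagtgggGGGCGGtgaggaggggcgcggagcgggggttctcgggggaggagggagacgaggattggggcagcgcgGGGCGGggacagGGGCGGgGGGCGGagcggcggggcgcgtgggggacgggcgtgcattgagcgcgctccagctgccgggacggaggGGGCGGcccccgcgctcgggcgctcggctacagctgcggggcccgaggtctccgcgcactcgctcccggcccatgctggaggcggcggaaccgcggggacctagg
CALCR start: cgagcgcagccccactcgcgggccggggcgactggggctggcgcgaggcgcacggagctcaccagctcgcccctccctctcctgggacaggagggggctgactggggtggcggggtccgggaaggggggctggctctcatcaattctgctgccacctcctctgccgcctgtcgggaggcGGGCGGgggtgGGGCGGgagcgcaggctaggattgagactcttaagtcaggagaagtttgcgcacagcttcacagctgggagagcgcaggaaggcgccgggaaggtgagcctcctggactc

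The upstream VIPR1 window had 41.3% G or C and no GC box, while the downstream window had 70.7% and 4 GC boxes. The VIPR2 window had 79.7% and 5 GC boxes, and the CALCR window 70.3% and 2. The second windows of VIPR2 and CALCR, not printed, had 54.0% and 35.7% and no GC box, so each of the 3 genes has a GC-rich and a poorer start. A GC box was found in 45.0% of the 35116 RefSeq windows of this length, whose median was 58.7% G or C. The loose NF-κB core, GGG and CC with any 5 bases between them, was searched on both strands, as were all motifs, and can overlap a GC box. It was matched 4 times in the downstream VIPR1 window and 4 times in the VIPR2 window, and not in the upstream VIPR1 or the CALCR window; 58.7% of all windows held it. No full cyclic AMP response element TGACGTCA was found in these 4 windows; 1.85% of all windows held it.

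VIPR1 stood high in untreated cells and lower in every treated group. Its log2 values were 6.23, 6.20 and 6.42 on the control arrays, 4.71, 4.80 and 4.84 with TNFα, 4.95, 4.56 and 4.92 with apigenin, and 4.41, 4.49 and 4.56 with both. The 9 treated arrays all lay below the 3 controls, the closest of them by 1.25, and all 12 values were above the median of their array. The group means were 6.28 ± 0.12 (SD, n = 3) in control, 4.78 ± 0.07 with TNFα, 4.81 ± 0.22 with apigenin and 4.48 ± 0.07 with both.

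The VIPR1 difference from control on the log2 scale was -1.50 with TNFα (SE 0.13, 95% interval -1.77 to -1.23), or 2.83-fold lower. With apigenin it was -1.47 (SE 0.13, interval -1.75 to -1.20), 2.78-fold lower. With both agents it was -1.80 (SE 0.13, interval -2.07 to -1.53), 3.48-fold lower. These 3 differences share the control arrays, and control and TNFα arrays entered the choice of VIPR1. The intervals of all VIPR1 differences that use control or TNFα arrays therefore describe the scatter of arrays and are not tests. After such a choice they need not hold their 95% coverage. At a limma adjusted p below 0.05, 0.219% of the 20572 genes were called lower and 0.778% higher with TNFα, 6.83% lower and 4.55% higher with apigenin, and 5.37% lower and 7.15% higher with both (12.5% in all). Which direction held more calls turned with some settings: leaving out control replicate 3 gave 982 higher against 897 lower calls with apigenin. For both agents against control, leaving out control replicate 2 gave 980 higher against 1073 lower calls, and quantile normalisation gave 1300 against 2049. In bulk RNA, fewer cells with VIPR1 and less VIPR1 RNA per cell cannot be told apart.

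**Figure D1:**
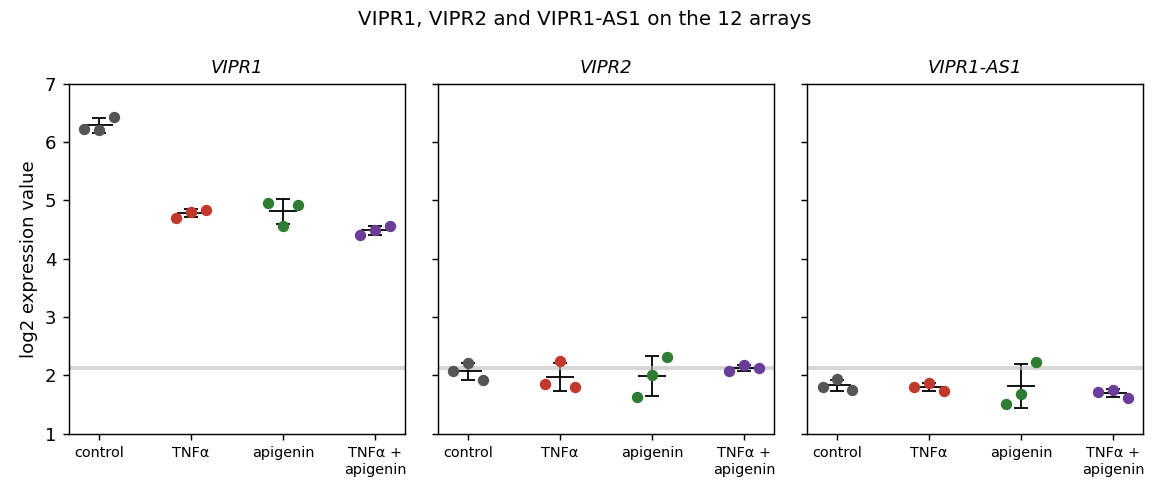
Log2 expression values (vertical axis) of VIPR1, VIPR2 and the antisense gene VIPR1-AS1 on the 12 arrays by treatment group; points are arrays, bars the mean ± SD of 3, and the grey band the range of the array medians (2.091 to 2.159). VIPR1 lies between 6.20 and 6.42 in control and between 4.41 and 4.95 in the treated groups, while VIPR2 and VIPR1-AS1 stay near or under the band.

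In order of level, VIPR1 was highest in control, then came apigenin and TNFα, whose arrays overlapped (4.56 to 4.95 and 4.71 to 4.84), and the combined treatment was lowest. TNFα and apigenin alone therefore gave VIPR1 levels that could not be ordered beyond their spread. The combined arrays (4.41 to 4.56) lay below all TNFα arrays by at least 0.15, a VIPR1 difference of -0.30 (SE 0.13, interval -0.57 to -0.02). They also lay below all apigenin arrays, but the lowest apigenin array and the highest combined array differed by 0.001 only.

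The one VIPR1 comparison on arrays that did not enter its choice is TNFα added to apigenin. There the VIPR1 difference was -0.33 (SE 0.13, interval -0.60 to -0.05, limma adjusted p = 0.606), which was not called. Its SE and p-value draw on the scatter in all 4 groups, those of the choice included. A limma fit of the apigenin and combined arrays only gave an SE of 0.14 and an adjusted p of 0.566. Each combined array lay below each apigenin array. An exact permutation test over these 6 arrays gave a two-sided p of 0.1, the smallest it can give. In this comparison limma called 43 genes higher, 0.209% of those tested, and 0 lower, or 0.0%, while 1489 genes had an unadjusted limma p below 0.05.

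With both agents VIPR1 was higher than the sum of the single differences gives. The 2 single differences sum to -2.97, which would place VIPR1 at 3.31 with both agents, whereas it was measured at 4.48. The TNFα response of VIPR1 was thus smaller in the presence of apigenin by 1.18 on the log2 scale (SE 0.18, interval 0.79 to 1.56). This difference contains the comparison that chose VIPR1 and is given without a test; limma called 0.0535% of genes for such a difference, 0.00972% higher and 0.0437% lower. When each array was left out in turn, it stayed between 1.05 and 1.25.

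**Figure D2:**
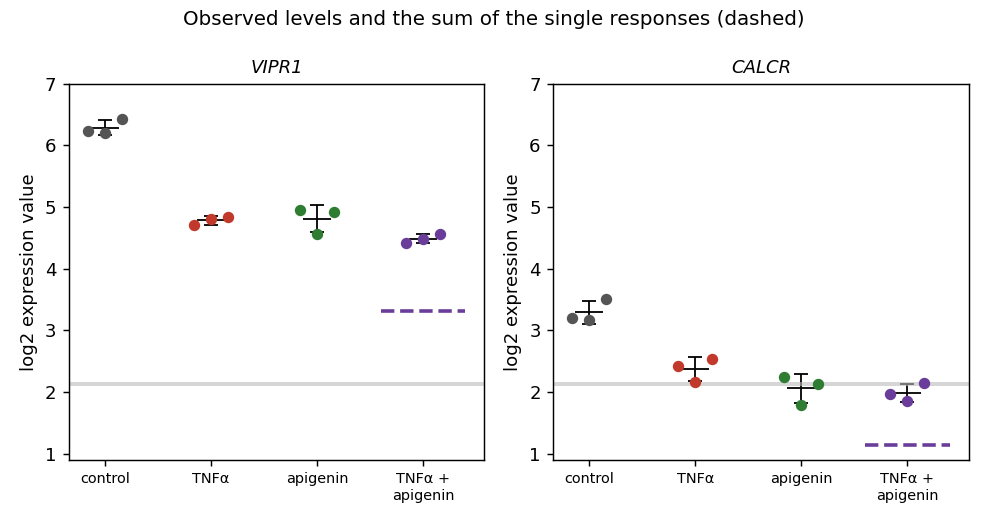
Log2 expression values (vertical axis) of VIPR1 and CALCR by treatment group; points are arrays, bars the mean ± SD of 3, the grey band the range of array medians, and the dashed line the level that the sum of the 2 single differences would give. For VIPR1 the dashed line at 3.31 lies below all combined arrays (4.41 to 4.56), and for CALCR it lies at 1.14, below its combined arrays (1.86 to 2.14). The CALCR line also lies below the 25th percentile of every array (1.597 to 1.645), where a fall could hardly be read.

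VIPR2 lay at the low end of the scale in every group and was not called in any comparison. Its log2 values were 2.07, 2.22 and 1.92 in control, 1.86, 2.25 and 1.80 with TNFα, 1.63, 2.01 and 2.32 with apigenin, and 2.08, 2.18 and 2.13 with both. The 4 groups overlapped in every pair, and only 5 of the 12 values reached the median of their array. The VIPR2 difference from control was -0.10 with TNFα (SE 0.17, interval -0.47 to 0.27, limma adjusted p = 0.896) and -0.08 with apigenin (interval -0.45 to 0.29, adjusted p = 0.848). Between both agents and TNFα it was 0.16 (interval -0.21 to 0.53, adjusted p = 0.685), and between both agents and apigenin 0.14 (interval -0.23 to 0.51, adjusted p = 0.924). Its TNFα response with and without apigenin differed by 0.24 (interval -0.28 to 0.76, adjusted p = 0.999). The intervals against control do not reach the falls of VIPR1. The VIPR2 control values lay little above the 25th percentiles of the arrays (1.597 to 1.645), so a fall of that size could hardly have been read. Whether VIPR2 responded less than VIPR1 cannot be told from this probe set. The 2 VIPR2 values that involve apigenin alone turned sign without apigenin replicate 1, to 0.10 and -0.04.

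The ligands VIP and PACAP were also read at the low end of the scale. VIP, on control arrays at 1.37, 1.48 and 1.62, ranged from 1.57 to 1.95 on the treated arrays, all below the array medians. ADCYAP1, which encodes PACAP, lay between 1.57 and 2.17 over the 12 arrays, with group means of 1.82 to 1.89. The PACAP-selective receptor ADCYAP1R1 had group means between 2.53 and 2.61. None of these 3 genes was called in any of 4 comparisons: TNFα or apigenin against control, and both agents against TNFα or against apigenin. In these comparisons, in that order, 0.997%, 11.4%, 10.1% and 0.209% of all genes were called.

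Genes beside VIPR1 were not called with either agent against control. The antisense gene VIPR1-AS1, which lies inside VIPR1 in the RefSeq gene table, had group means of 1.70 to 1.83, and its difference from control was -0.02 with TNFα (SE 0.16, adjusted p = 0.984) and -0.02 with apigenin (adjusted p = 0.971). Which strand each probe set reads was not stated in the labels. Of the 3 nearest measured genes on each side, TRAK1, CCK, LYZL4, SEC22C, SS18L2 and NKTR, none was called with TNFα or with apigenin against control, beside 0.997% and 11.4% of all genes. The largest TNFα difference among them was 0.46 for TRAK1, upward (SE 0.13, adjusted p = 0.132), and TRAK1 was called lower with both agents than with TNFα (-0.56, adjusted p = 0.0127). NKTR was called higher with both agents than in control (0.56, SE 0.13, limma adjusted p = 0.0124).

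Among the other class B1 receptors and their RAMP partner proteins, 1 of 16 fell with TNFα and none rose, beside 0.997% of all genes called in either direction. This was CALCR, the calcitonin receptor. Its log2 values were 3.20, 3.16 and 3.51 in control, 2.42, 2.16 and 2.54 with TNFα, 2.25, 1.79 and 2.13 with apigenin, and 1.96, 1.86 and 2.14 with both, so that all treated arrays lay below all controls. CALCR fell by 0.92 with TNFα (SE 0.15, limma adjusted p = 0.00927) and by 1.23 with apigenin (SE 0.15, adjusted p = 2.1e-04). The call with TNFα was lost when only control and TNFα arrays were fitted (adjusted p = 0.0536) and without the arrays numbered 3 (adjusted p = 0.0923).

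Adding TNFα to apigenin gave a CALCR difference of -0.07 (SE 0.15, limma adjusted p = 0.971). The TNFα response of CALCR with apigenin exceeded that without it by 0.85 (SE 0.22, adjusted p = 0.707), which was not called. The sum of the single differences would place CALCR at 1.14 with both agents, and it was measured at 1.99. That summed level lies below the 25th percentile of every array (1.597 to 1.645), and only 8 of the 12 CALCR values reached the median of their array. A fall to it could therefore hardly have been read on this probe set. The 15 other members of that list had no call in any of the 4 comparisons. These were TNFα or apigenin against control, and both agents against TNFα or against apigenin. In that order, 0.997%, 11.4%, 10.1% and 0.209% of all genes were called. The list's median difference was -0.06 with TNFα and -0.04 with apigenin, against 0.02 and -0.02 over all genes.

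Of 13 tested ligands of class B1 receptors, none was called with TNFα against control, beside 0.997% of all genes. With apigenin 1 rose and 1 fell, beside 11.4% of all genes called in either direction. Adrenomedullin (ADM), a vasodilator peptide, read 4.92, 4.86 and 5.01 in control and 6.40, 6.32 and 6.32 with apigenin, a rise of 1.42 (SE 0.10, limma adjusted p = 3.5e-06), and it was also 1.23 higher with both than with TNFα (adjusted p = 1.5e-05). Urocortin 2 (UCN2), a ligand of CRHR2, fell by 0.76 with apigenin (SE 0.13, adjusted p = 0.00238), a call lost without the arrays numbered 3 (adjusted p = 0.0625).

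The proteins that carry the receptor signal inward came in separate lists. These held 18 tested G proteins and adenylyl cyclases, 20 protein kinase A and Epac genes, and 10 CREB factors and coactivators. None of them was called with TNFα against control, where 0.997% of all genes were called. With apigenin, where 11.4% of all genes were called (4.55% higher and 6.83% lower), 1 of the 18, GNAQ of the phospholipase-coupled G proteins, fell by 0.64 (SE 0.19, adjusted p = 0.0418), and it kept its call in 6 of the 12 fits that left out 1 array. GNAS itself and the tested cyclases were not called. Of the 20 protein kinase A and Epac genes 3 fell with apigenin and 1 rose: the anchoring proteins AKAP9 (-0.94, SE 0.12, adjusted p = 2.8e-04) and AKAP12 (-0.88, SE 0.24, adjusted p = 0.0298) and the regulatory subunit PRKAR2A (-0.60, SE 0.13, adjusted p = 0.00827) fell, while AKAP8 rose by 0.64 (SE 0.14, adjusted p = 0.00747). The AKAP12 call was lost in 4 of the 12 fits that left out 1 array, and the PRKAR2A call without the arrays numbered 3 (adjusted p = 0.0554).

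Among the 10 CREB factors, coactivators and their kinases, 1 rose with apigenin against control and 2 were higher with both agents than with TNFα. These were SIK1 in both comparisons and SIK2 in the second (0.69, SE 0.18, limma adjusted p = 0.0268), a call lost in 4 of the 12 fits that left out 1 array. Over all genes, 4.55% were called higher in the first comparison and 4.21% in the second. Of 14 genes known to respond to cyclic AMP, a list that also holds SIK1, 5 rose and 1 fell with apigenin against control, beside 4.55% of all genes called higher and 6.83% lower. None was called with TNFα, beside 0.997% of all genes, and the median difference with apigenin was 0.36 against -0.02 over all genes. SIK1, a kinase that restrains CREB coactivators, read 4.31, 3.77 and 4.39 in control and 6.15, 5.86 and 6.32 with apigenin, a rise of 1.95 (SE 0.18, limma adjusted p = 2.0e-05). The phosphatase gene DUSP1 rose by 1.30 (SE 0.15, adjusted p = 9.6e-05) and FOSB by 0.74 (SE 0.17, adjusted p = 0.0104). FOS rose by 0.89 (SE 0.26, adjusted p = 0.0433), with its call lost in 6 of the 12 fits that left out 1 array. The fifth to rise was the nuclear receptor gene NR4A1 (0.58, adjusted p = 0.0366), and the neurotrophin gene BDNF fell by 0.63 (adjusted p = 0.00515); these 2 are named after their values were seen. With both agents against TNFα, SIK1 was 1.37 higher (adjusted p = 3.3e-04) and DUSP1 0.90 higher (adjusted p = 0.00174), and no other gene of the list was called. All genes together had 4.21% called higher and 5.92% called lower there. Several of these genes also respond to other signals, such as stress and growth factors.

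Receptor kinases, arrestins and RGS proteins, which switch G protein-coupled receptors or their G proteins off, went both ways. Of 14 tested, 1 rose and 3 fell with apigenin against control, where 11.4% of all genes were called, 4.55% higher and 6.83% lower. Between both agents and TNFα 1 rose and 4 fell, where 10.1% of all genes were called, 4.21% higher and 5.92% lower. RGS2, a brake on Gq signalling, rose by 1.54 in each of these comparisons (SE 0.20, limma adjusted p = 2.7e-04 and 3.3e-04), from 4.50 to 4.94 in control to 6.02 to 6.38 with apigenin. The receptor kinase GRK5 was -0.73 with both against TNFα (SE 0.13, adjusted p = 0.00249), and GRK3 was -0.76 there (SE 0.17, adjusted p = 0.00975; 0.0664 without the arrays numbered 3). ARRB1 (-0.60, adjusted p = 0.0361) and RGS10 (-0.51, adjusted p = 0.0306, named after its value was seen) were the other 2 that fell there; the ARRB1 call was lost in 5 of the 12 fits that left out 1 array, with an adjusted p of up to 0.165, and without the arrays numbered 3 (0.104). With TNFα against control GRK5 differed by 0.54 (adjusted p = 0.0678), which was not called. The arrestin gene ARRB1 fell by 0.68 with apigenin (SE 0.17, adjusted p = 0.0161) and RGS4 by 0.63 (adjusted p = 0.0216); the ARRB1 call was lost without control replicate 3, apigenin replicate 1 or apigenin replicate 3, with an adjusted p of up to 0.0713, and that of RGS4 in 4 of the 12 such fits, with up to 0.0838. GRK5 fell by 0.42 with apigenin (adjusted p = 0.0478), a call lost in 9 of the 12.

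The counts of the next 3 lists, 6.25%, 2.94% and 12.5% of their tested genes with apigenin, were below or near the 11.4% of all genes. Of 16 other Gs-coupled receptors 1 fell with apigenin, the adenosine receptor ADORA2B (-0.56, SE 0.13, limma adjusted p = 0.0134). This call was lost without the arrays numbered 3 (0.0812) and in 2 of the 12 fits that left out 1 array (up to 0.0601). ADORA2B was also lower with both agents than with TNFα (-0.82, adjusted p = 0.00158), where 10.1% of all genes were called. Of 34 receptors for other neuropeptides 1 fell with apigenin, the oxytocin receptor OXTR (-0.75, SE 0.22, adjusted p = 0.0435), and its call held in 2 of the 12 fits that left out 1 array. None of these receptors was called with TNFα against control, where 0.997% of all genes were called. Of 8 peptidases that process or degrade peptides, CPE, which trims peptide precursors, rose with apigenin by 0.50 (SE 0.14, adjusted p = 0.0309), a call lost in 4 of the 12 such fits. CPE was also higher with both agents than with TNFα (0.53, adjusted p = 0.0247), a call again lost in 4 of the 12. MME and DPP4, which degrade VIP, were not called.

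**Figure D3:**
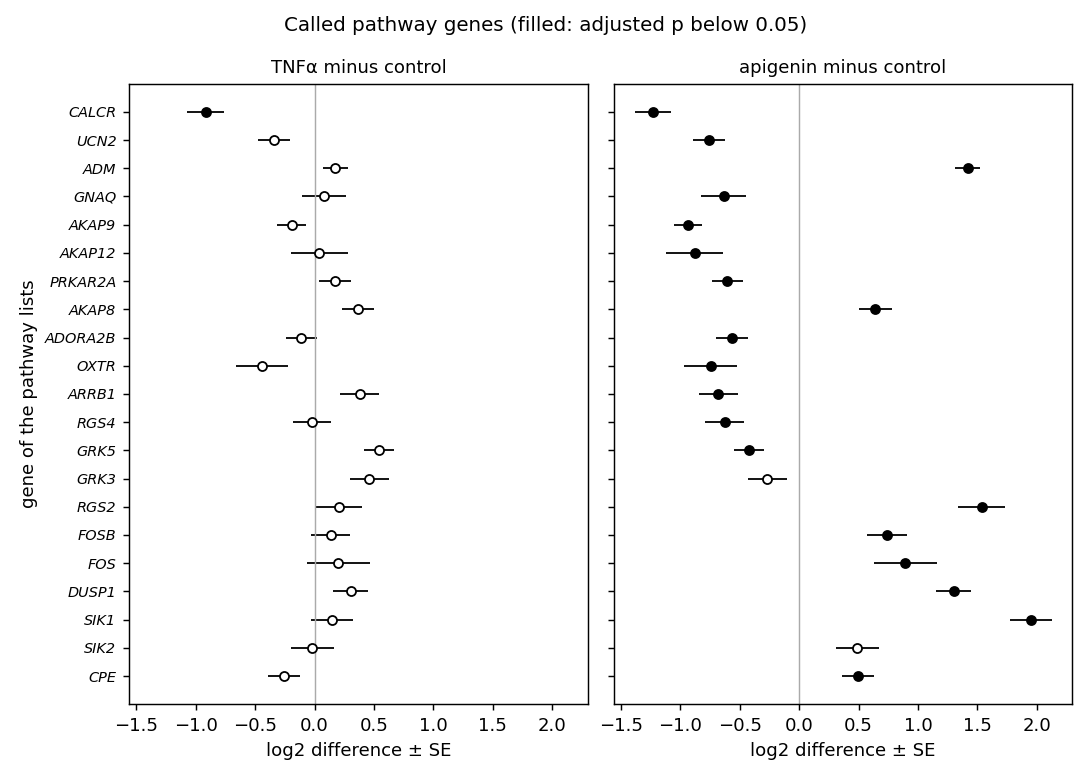
Log2 differences from control ± SE (horizontal axes, same scale) with TNFα (left) and apigenin (right) for the named genes of the pathway lists (vertical axis); filled points have an adjusted p below 0.05. With TNFα only CALCR is filled, at -0.92, while with apigenin filled points run from -1.23 for CALCR to 1.95 for SIK1. NR4A1, BDNF and RGS10, which were named after their values were seen, are not drawn.

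Over all lists, 161 of 173 genes were tested. With TNFα 1 of them was called (CALCR), 0.621% beside 0.997% of all genes. An unadjusted limma p below 0.05 was found there for 23 of the 161, beside 2387 of all 20572 genes. With apigenin 9 list genes were called higher and 12 lower, 13.0% beside 11.4% of all genes. Between both agents and TNFα 6 were higher and 5 lower, 6.83% beside 10.1%. Between both agents and apigenin no list gene was called, beside 0.209% of all genes. There 16 of the 161 had an unadjusted limma p below 0.05, beside 1489 of all 20572 genes. With quantile normalisation the list calls between both agents and TNFα were 6 higher and 15 lower, where all genes had 990 higher and 1761 lower. With apigenin they were 9 higher and 19 lower, where all genes had 1062 and 2000. The replicate block gave 7 higher and 18 lower list calls between both agents and TNFα, where all genes had 1375 and 1940. With apigenin it gave 10 and 19, where all genes had 1435 and 2066. With TNFα against control it called 3 list genes higher and 1 lower, and 489 and 143 over all genes. The number of calls there thus depends on the unblocked fit, for the lists and for all genes alike. Without the arrays numbered 3, list calls with apigenin were 7 higher and 4 lower, while all genes had 632 higher and 873 lower.

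Genes whose pattern was closest to VIPR1 were sought over all 20571 other genes. Each gene was centred on its own mean over the 12 arrays, and likeness was the root mean square difference from VIPR1 over those arrays, so that a small value means a similar shape and size. CALCR was the closest of all, at 0.249, followed by the growth factor gene BMP4 (0.266), SPRY1, an inhibitor of receptor tyrosine kinase signalling (0.281), and GALNT5, which starts O-linked glycans (0.298). Next came the amino acid transporter SLC38A4 (0.308), the endothelin receptor EDNRB (0.315), LTBP1, which binds latent TGF-β (0.326), and SESN3 of the sestrins (0.326). The ninth gene stood at 0.330, so there was no gap after these 8, and the median gene stood at 0.737.

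The shared shape of these 8 genes follows from how they were picked, and their values are descriptions. BMP4 had group means of 9.08 in control, 8.27 with TNFα, 8.04 with apigenin and 7.56 with both, and its arrays did not overlap between any 2 groups. EDNRB, another G protein-coupled receptor, came closest to VIPR1 in that both single agents left it at nearly the same level, with 4.77 in control, 3.96 with TNFα, 3.94 with apigenin and 3.65 with both. SLC38A4 had the largest differences of the 8, from 4.84 in control to 3.47, 3.20 and 2.79. SPRY1, GALNT5 and LTBP1 had lower group means with apigenin than with TNFα, while SESN3 was at 2.37 with TNFα and 2.51 with apigenin. In each of the 8 the TNFα difference was smaller with apigenin present, by 0.33 for BMP4 and by up to 0.96 for SLC38A4, against 1.18 for VIPR1. VIPR2 stood at 0.736 in likeness, close to the median gene.

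**Figure D4:**
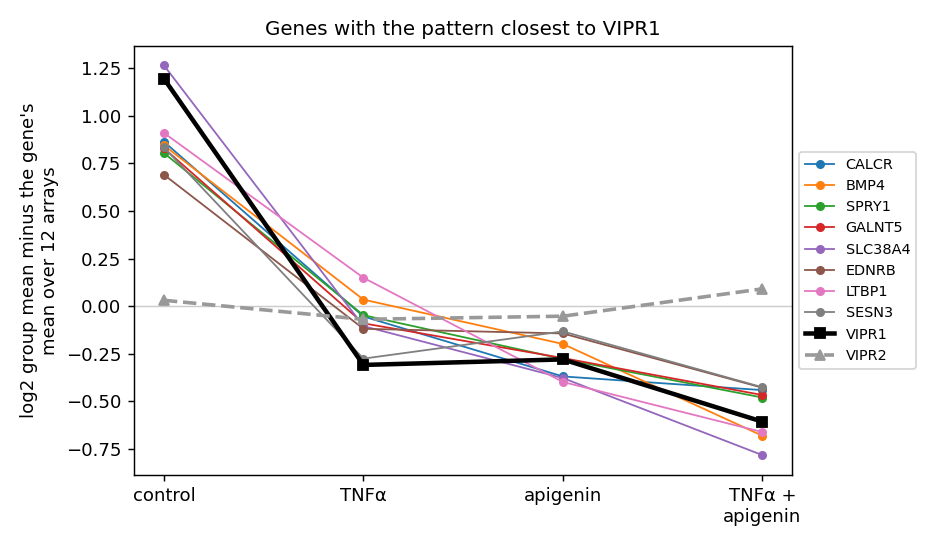
Log2 group means minus each gene's mean over the 12 arrays (vertical axis) in the 4 treatment groups for VIPR1 (black squares), the 8 genes closest to it (thin lines) and VIPR2 (grey dashed line). The 8 genes were picked for this likeness; all are highest in control and lowest with both agents, while VIPR2 stays near its own mean.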

How the data were processed

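The authors' deposited table holds log2 expression values of 53617 probe sets on 12 whole-transcript arrays, for which the submitters' processing notes name Affymetrix Expression Console; no version, algorithm, setting or build was stated. The platform table named 23871 probe sets with 1 symbol, and 90 symbols were updated through gene identifiers. A probe set was kept if it reached the 25th percentile of the array on at least 3 arrays, and a gene was read from its brightest one (20572 genes). limma 3.58.1 in R 4.3.3 fitted 4 group means with 8 residual degrees of freedom, and p-values were adjusted over all genes (Benjamini-Hochberg) with a threshold of 0.05; an adjusted p comes from this fit unless its sentence names another setting. The fit was tested on simulated data. VIPR1, VIPR2 and the gene lists were chosen with earlier results of these data known. Lists are described by counts and medians only. Named genes were the members, VIP, ADCYAP1 and ADCYAP1R1, up to 4 called genes of each list and comparison by size, the 5 label checks, the neighbours of VIPR1 and the 8 genes closest to it. The number of arrays limits the precision. Other normalisation, filters, priors, probe set rules, a replicate block and left-out arrays were tried.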

Additional observations from a re-analysis of the deposited data

Results flagged for a closer look

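The TNFα response of VIPR1 differed with and without apigenin by 1.18 on the log2 scale (SE 0.18), being -1.50 without and -0.33 with it, and was listed because this difference was larger than the spread between arrays. VIPR1 was chosen for one of these responses, so no p-value is given for it.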

How the results depend on the processing

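VIPR1 kept its direction in all 6 of its differences under the 8 other settings, where each could be fitted, and when each array was left out in turn, and its TNFα difference in apigenin-treated cells was never called: leaving out arrays gave -0.45 to -0.26 (adjusted p 0.418 to 0.986), quantile normalisation -0.42 (adjusted p = 0.262) and the replicate block -0.33 (adjusted p = 0.276). VIPR2 was never called; leaving out arrays moved its apigenin difference between -0.25 and 0.10 and that between both agents and apigenin between -0.04 and 0.31; without apigenin replicate 1 they turned sign, to 0.10 and -0.037. Replicate numbers were not taken as pairing in the main fit. Deviations of arrays numbered 1 correlated at 0.0182 to 0.102, those numbered 2 at 0.201 to 0.376 and those numbered 3 at 0.302 to 0.464. Of the 12 arrays, 11 correlated best with an array of their own number, so the main fit may leave out a structure that these arrays share. With the replicate block, calls went from 205 to 632 (TNFα against control), from 2085 to 3315 (both against TNFα) and from 43 to 100 (both against apigenin), and list genes called from 1 to 4 (3 higher and 1 lower) and from 11 to 25 (7 higher and 18 lower) in the first 2 of these. Fitting only the groups compared gave 73 and 21 calls for TNFα against control and both against apigenin, and 0 list genes with TNFα. Without the arrays numbered 3 the calls were 85, 1505 (apigenin against control), 1288, 15 and, for the difference of TNFα responses, 2, and the list genes called were 0, 11 and 7. Quantile normalisation called 21 list genes between both agents and TNFα, where 990 of all genes were called higher and 1761 lower. It moved TNFα against control from 160 higher and 45 lower to 181 and 123 (77 and 8 without the arrays numbered 3, 222 and 30 without control replicate 3). It moved both against control from 1471 and 1105 to 1300 and 2049 (1640 and 769 without control replicate 3). A trend in the prior left 4 calls of 11 for the difference of responses. Leaving out 1 array gave 98 to 314 calls for TNFα against control: 98 and 131 without control replicate 1 and 2, and 103, 314 and 107 without TNFα replicate 1, 2 and 3. For apigenin against control it gave 1534 (without apigenin replicate 1) to 2393, for both against TNFα 1191 (without combined replicate 1; 1278 without TNFα replicate 1) to 2202, for both against apigenin 15 to 47 (27 without control replicate 1, 15 and 19 without apigenin replicate 1 and 2, and 23, 19 and 18 without combined replicate 1, 2 and 3), and for the difference of responses 2 to 6, fewer than 11 whichever array was left out. List genes called ranged from 1 to 2 (2 without control or apigenin replicate 3), 13 (without control replicate 3) to 21, and 7 (without TNFα replicate 1 or combined replicate 1 or 3) to 15. Of 44 named gene and comparison pairs that were called, 26 were called under every alternative. The 44 include pairs of the label-check genes CXCL8, TNFAIP3, ICAM1, PLK1 and CCNB1, picked for a known response. The count is therefore not one for the list genes alone. The cause of these shifts was not tested.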
